A study of Homo sapiens with 6 samples.

Results

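The homologous recombination, Fanconi anaemia and checkpoint genes described here are 43 human genes, BRCA2 among them, given as a list of symbols. A gene was kept where its mean of 2 raised to the deposited log2 value was at least 10 over 6 libraries, which all 43 passed, as did 14763 of 57820 gene rows. The lowest mean among them was 104, for RAD51D. Messenger RNA was sequenced in hTert-HME1, human mammary epithelial cells carrying telomerase so that they divide without limit, after transfection of a control siRNA (control-1) or 1 siRNA against BRCA2 (BRCA2-2) and a period of recovery. BRCA2 siRNA cells grown without EGF, a growth factor of the medium, gave 2 libraries at passage 6 (A and B), and BRCA2 siRNA cells grown with EGF gave 1 library at passage 4. Control siRNA cells, all grown with EGF, gave 2 libraries at passage 6 (A and B) and 1 at passage 4. All libraries thus come from a single cell line, and each target was addressed with a single siRNA. Control siRNA without EGF was not analysed here, so BRCA2 siRNA and EGF withdrawal cannot be told apart at passage 6.

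Homologous recombination repairs DNA double strand breaks from the sister chromatid. Ends are resected, BRCA1 with BARD1 and PALB2 brings BRCA2 to the single strand, BRCA2 loads the recombinase, and paralogs and partners of the recombinase stabilise and remodel its filament. The Fanconi anaemia pathway repairs crosslinks between DNA strands: a core complex attaches ubiquitin to FANCD2 and FANCI, and recombination completes the repair. The kinases ATM and ATR signal breaks and stalled replication to CHEK2 and CHEK1. In proliferating epithelium many of these genes are transcribed mostly around S phase, when E2F factors are active at their promoters.

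The depth of each library is unknown, because the deposited values are normalised. Mammary basal epithelial markers were mostly high in all 6 libraries, with KRT5, the highest of them, at log2 values of 16.81 to 17.86. CDH1 was lower, at 7.14 to 7.60 in the libraries with EGF and 9.78 and 9.79 in those without. EPCAM, an epithelial adhesion molecule, was near 0 in all of them (-0.18 to 0.09). Of 10 fibroblast markers, 8 passed the filter, among them COL3A1 at 9.07 to 11.56, while COL1A2 and PDGFRA did not. Of 6 haematopoietic markers, 0 passed the filter. Of 6 endothelial markers, 2 passed, with KDR at 8.04 to 10.07, and CDH5 was at 0 throughout. Over the genes tested, the SD of the log2 differences between libraries was 0.119 between the 2 controls of passage 6 and 0.308 between the 2 libraries without EGF. It was 0.485 and 0.509 between the passage 4 control and each passage 6 control, more than within either pair. For the passage 4 library labelled BRCA2 siRNA it was 0.290 and 0.321 to the passage 6 controls and 0.397 to the passage 4 control. With 1 passage 4 control, passage cannot be told apart from a difference of that library or its label. The labels call A and B biological replicates without saying whether they were separate cultures, so the spread that p-values measure here may be technical.

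The siRNA target came first. BRCA2 had log2 values of 11.15 and 10.89 in BRCA2 siRNA cells without EGF, 10.88 in the +EGF library labelled BRCA2 siRNA, 11.25 and 11.24 in the passage 6 controls and 10.19 in the passage 4 control. The passage 4 control was the lowest of the 6, below every library labelled BRCA2 siRNA. At passage 6, BRCA2 stood at 0.856 of the control level in BRCA2 siRNA cells without EGF (95% limma interval 0.701 to 1.04). The log2 difference was -0.23 ± 0.11 (SE), and limma's adjusted p was 0.23. Both libraries lay below both controls, as they did for 35.7% of all genes tested. At passage 4 BRCA2 was 1.61-fold higher in the library labelled BRCA2 siRNA than in the control, opposite to that label, and this comparison of 1 library with 1 has no replicate check. Whether either passage 4 library carries the wrong label was not tested. The cells had recovered after transfection, and how BRCA2 stood at earlier times was not analysed here.

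BRCA1, PALB2 and BARD1, which act directly with BRCA2, were read across the same libraries. BRCA1, the ubiquitin ligase subunit that promotes resection, had 11.78 and 11.51 without EGF, 11.64 in the +EGF library labelled BRCA2 siRNA, 11.87 and 11.85 in the passage 6 controls and 10.60 in the passage 4 control. BARD1, its obligate partner, had 9.85 and 9.71 without EGF, 9.57 in the +EGF library labelled BRCA2 siRNA, 9.96 and 10.01 in the passage 6 controls and 8.94 in the passage 4 control. Both followed the order of BRCA2 at its ends, with the passage 6 controls highest and the passage 4 control lowest. PALB2, the bridge between BRCA1 and BRCA2, did not: it had 9.80 and 9.80 without EGF, 9.95 in the +EGF library labelled BRCA2 siRNA, 9.99 and 9.96 in the passage 6 controls and 10.03 in the passage 4 control.

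**Figure D1:**
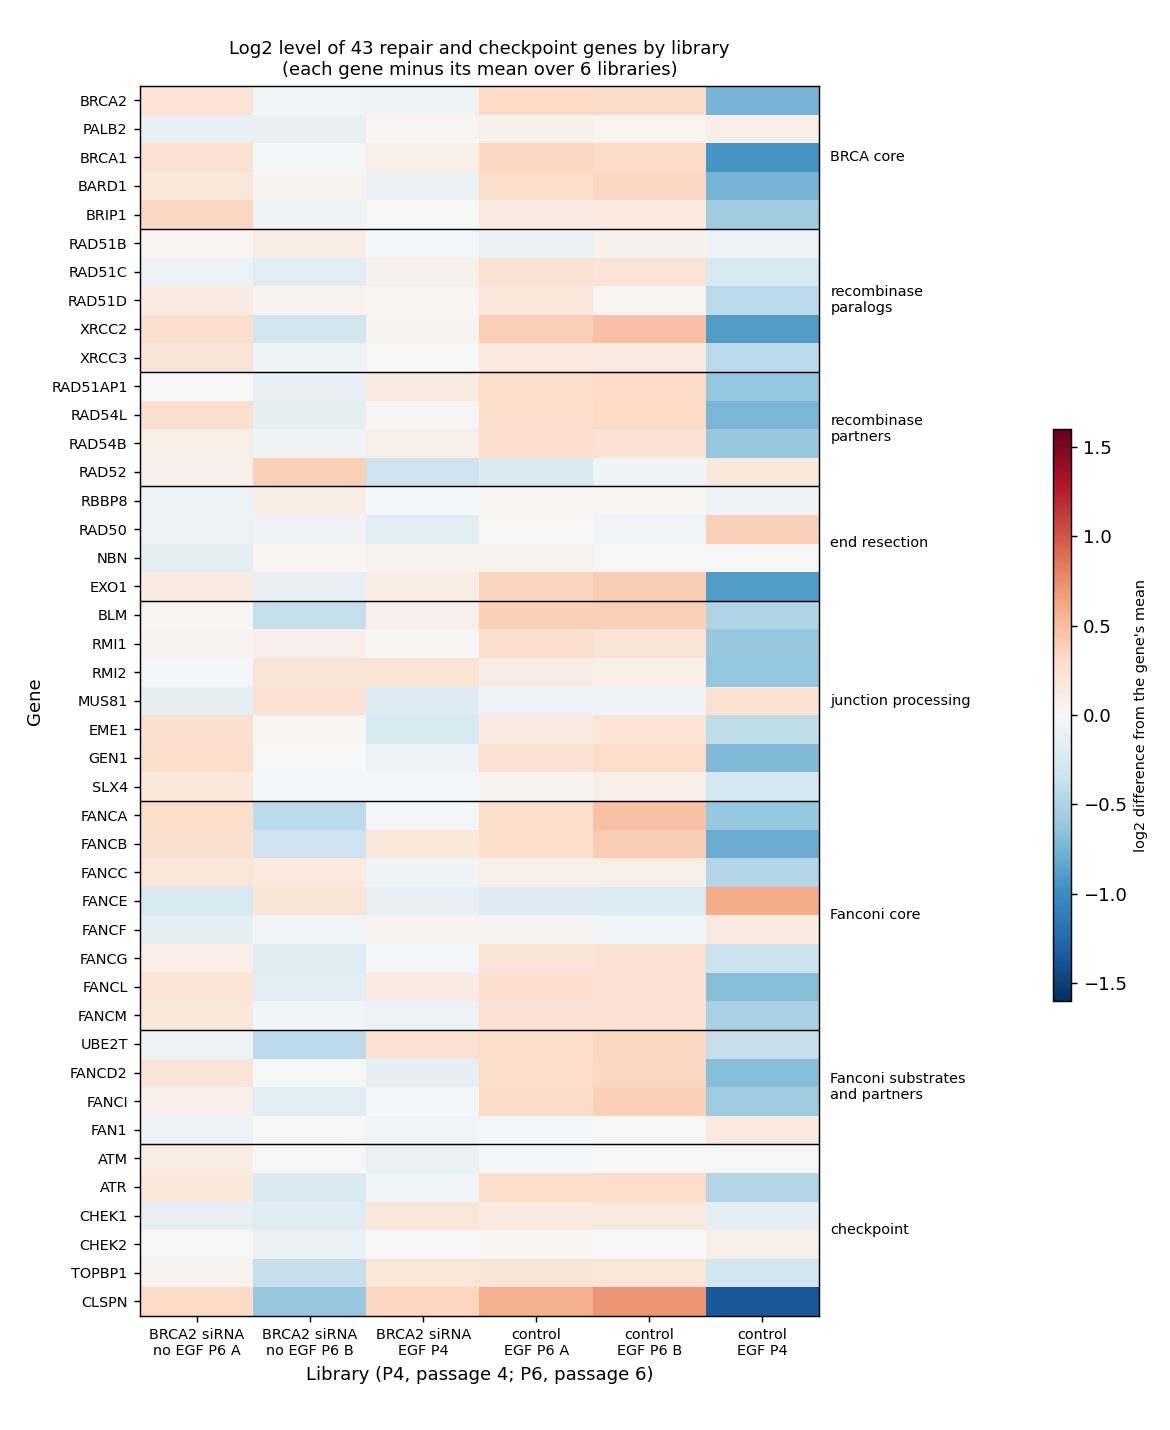
Log2 level of each of the 43 genes minus its mean over the 6 libraries (colour scale at right), with libraries in columns and genes in rows grouped by role; P4 and P6 are passages 4 and 6. The passage 4 control, at the far right, was the lowest of the 6 libraries for 28 genes, and CLSPN had the widest range.

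The passage 4 control held the lowest of the 6 values for 28 of the 43 genes (65.1%), against 23.9% of all genes tested, and the highest for 7 (16.3%, against 31.9% of all genes). Control B of passage 6 held the highest value for 16 genes (37.2%, against 11.7%). The heat map of the 43 genes shows this as a mostly blue column at the far right. The range over the 6 libraries had a median of 0.76 on the log2 scale among the 43 genes and 0.60 over all genes tested, and 10 of the 43 (23.3%) spanned at least 1, as 15.2% of all genes did. A group of 8 genes spanned less than 0.3, as 9.79% of all genes did: PALB2, RAD51B, RBBP8, NBN, FANCF, FAN1, ATM and CHEK2. Measured in bulk, a higher level from more cells in S phase and one from more RNA per cell cannot be told apart.

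The first contrast set passage 6 controls against the passage 4 control, both labelled control siRNA with EGF, and by those labels addresses passage without the siRNA or the medium. BRCA2 was higher at passage 4 in the library labelled BRCA2 siRNA than in the one labelled control, and if that control label were wrong this contrast would not be one of passage alone. At passage 6, 22 of the 43 genes rose and 1 fell (limma, adjusted p below 0.05), against 7.71% of all genes tested that rose and 12.4% that fell (20.1% in all). The median log2 difference was 0.67 among the 43 genes and -0.03 over all genes, and 35 of the 43 lay above 0 (47.6% of all genes). Both passage 6 controls were above the passage 4 control for 33 of the 43 (43.9% of all genes) and below it for 8 (49.2%). When each library was shifted to the same median, the split over all genes became 1488 risen and 1339 fallen, beside 1138 and 1825 as deposited. The summed endothelial markers moved with this contrast, at 287 and 315 at passage 6 and 1104 at passage 4. Of the 2 that passed, KDR, a growth factor receptor, fell by 1.96 (limma, adjusted p = 0.0231) and TEK had -0.29 (limma, adjusted p = 0.462), and their part in the repair gene levels was not tested. The calls rest on a lone passage 4 library, assumed to vary like the pairs, and on the closeness of the passage 6 controls. With those controls averaged, or with either left out, 0 of the 43 were called: BRCA2 then had a difference of 1.04 to 1.05 at limma's adjusted p of 0.165 to 0.204, and without a filter on low values the adjusted p was 0.0701 with 0 of the 43 called. With either library lacking EGF left out, 36 (83.7%) were called, as were 66.8% or 66.9% of all genes.

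Among the BRCA genes, BRCA2 rose by a log2 difference of 1.05 ± 0.13 (SE), a 2.07-fold change with a 95% interval of 1.62 to 2.64 (limma, adjusted p = 0.0235). BRCA1 rose by 1.26 ± 0.14 (limma, adjusted p = 0.0231) and BARD1 by 1.05 ± 0.10 (limma, adjusted p = 0.0231). BRIP1, a helicase that binds BRCA1, had 10.51 and 10.53 at passage 6 and 9.81 at passage 4, a difference of 0.72 that lay just outside the threshold (limma, adjusted p = 0.0506). PALB2 had a difference of -0.06 ± 0.09 (limma, adjusted p = 0.644). Of the other 42 genes, 5 had a larger difference than BRCA2: CLSPN, XRCC2, EXO1, BRCA1 and FANCB.

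The recombinase paralogs form filament-stabilising complexes. XRCC2 had 10.18 and 10.26 in the passage 6 controls and 8.89 in the passage 4 control, and it rose by 1.33 ± 0.24 (limma, adjusted p = 0.0322). RAD51C rose by 0.48 ± 0.10 (limma, adjusted p = 0.0395). For RAD51D the difference was 0.54 and for XRCC3 0.59, neither past the threshold (limma, adjusted p = 0.0533 and 0.0528), and for RAD51B it was 0.08. Of the partners that act on the filament, RAD51AP1, which stimulates strand pairing, rose by 0.93, the translocase RAD54L by 1.03 and its relative RAD54B by 0.86. RAD52, an annealing protein, had 8.69 and 8.86 at passage 6 and 9.09 at passage 4, a difference of -0.32 that did not pass the test (limma, adjusted p = 0.217).

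End resection was the only role with a gene called in each direction, 1 higher and 1 lower of 4. Over all genes tested 7.71% rose and 12.4% fell. EXO1, the long-range resection nuclease, had 10.47 and 10.53 in the passage 6 controls and 9.22 in the passage 4 control, and it rose by 1.28 ± 0.13 (limma, adjusted p = 0.0231). RAD50, the ATPase of the complex that senses broken ends, was the only one of the 43 that fell, with 12.60 and 12.57 at passage 6 and 12.99 at passage 4 (difference -0.40 ± 0.09, limma, adjusted p = 0.0413). That call was lost under the replicate block (limma, adjusted p = 0.112), without a mean-variance trend (0.0566), with libraries shifted to the same median (0.0582), under quantile normalisation (0.0515) and without a filter on low values (0.0771). NBN, a partner of RAD50 in that complex, had a difference of 0.02, and RBBP8 (CtIP), which starts resection, one of 0.08.

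Junction processing genes resolve or dissolve the joined DNA molecules that recombination leaves. The dissolution helicase BLM rose by 0.86, and its accessory subunits RMI1 and RMI2 by 0.85 and 0.73. The nuclease GEN1 rose by 0.97, and EME1, a nuclease subunit, by 0.60, just inside the threshold (limma, adjusted p = 0.0492). MUS81, the catalytic partner of EME1, had 9.62 and 9.64 at passage 6 and 9.94 at passage 4, with a difference of -0.31 (limma, adjusted p = 0.242). SLX4, the scaffold of several such nucleases, had a difference of 0.35 (limma, adjusted p = 0.101).

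Of the 8 Fanconi core genes, 4 rose, against 7.71% of all genes tested. FANCB, a core subunit encoded on the X chromosome, had 8.26 and 8.38 in the passage 6 controls and 7.18 in the passage 4 control, and it rose by 1.14 ± 0.26 (limma, adjusted p = 0.0458). The ubiquitin ligase FANCL rose by 0.94, the translocase FANCM by 0.76 and FANCC by 0.56. The core subunits FANCA and FANCG had differences of 0.98 and 0.56 (limma, adjusted p = 0.0781 and 0.0588), and FANCF one of -0.14. FANCE, which contacts FANCD2, had 8.35 and 8.35 at passage 6 and 9.16 at passage 4, the lowest difference of the 43 at -0.81 ± 0.21 (limma, adjusted p = 0.0553). Downstream of the core, UBE2T, the ubiquitin conjugating enzyme, rose by 0.67 (limma, adjusted p = 0.0496), FANCD2 by 1.0 and FANCI by 0.91. The nuclease FAN1 had a difference of -0.16.

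Of the 6 checkpoint genes, CLSPN alone passed the test, a count near the 20.1% of all genes tested that were called. CLSPN (claspin), the adaptor through which ATR activates CHEK1, had 10.96 and 11.09 in the passage 6 controls and 9.02 in the passage 4 control. It rose by 2.00 ± 0.38, a 3.99-fold change with a 95% interval of 2.00 to 7.96 (limma, adjusted p = 0.0351), the largest difference of the 43. The kinase ATR had a difference of 0.75, TOPBP1, which activates it, 0.49, and the kinase CHEK1 0.29 (limma, adjusted p = 0.0516, 0.124 and 0.076). The kinases ATM and CHEK2 had differences of 0.01 and -0.07.

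**Figure D2:**
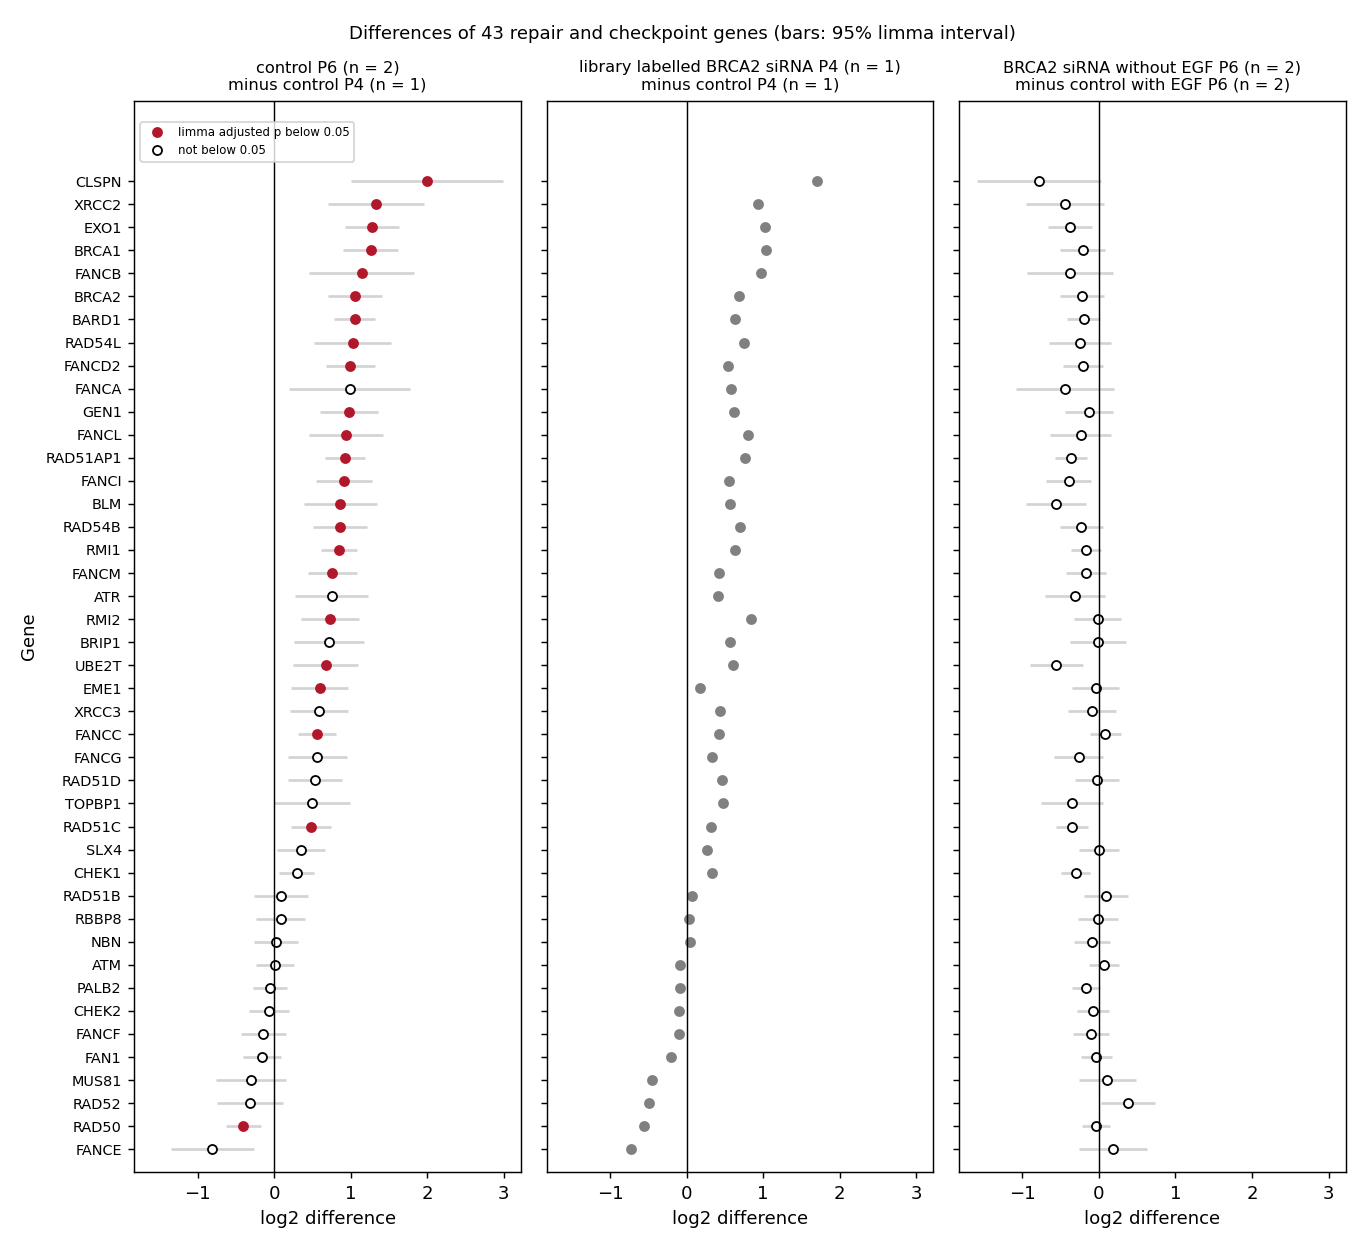
Log2 differences of the 43 genes in 3 comparisons, ordered by the first; points are differences, bars 95% limma intervals, filled red points limma adjusted p below 0.05, and grey points have no test. In the passage comparison of the controls 22 genes rose and RAD50 fell, and in the passage 6 comparison at right 0 genes passed the test and 36 lay below 0.

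Promoter sequences are shown for the members with an E2F motif and the largest differences between the control passages, since E2F factors are known regulators of S phase genes. Of the 43 genes, 39 had an entry in the RefSeq promoter table (GRCh38.p14), which runs from 250 bases before to 50 bases after the annotated start. The E2F motif searched was TTTCCCGC, TTTCGCGC, TTTGGCGC or TTTGCCGC on either strand. Capitals mark the match in each sequence, which is written 5′ to 3′ on the strand of the gene. Each of the 4 held 1 match. BRCA1, FANCB, BRCA2, BARD1 and RAD54L rose more than FANCD2 and had entries, but none of these held a match. CLSPN lies on the minus strand at chr1:35769929-35770228, XRCC2 on the minus strand at chr7:152676092-152676391, EXO1 on the plus strand at chr1:241847954-241848253 and FANCD2 on the plus strand at chr3:10026187-10026486.
CLSPN: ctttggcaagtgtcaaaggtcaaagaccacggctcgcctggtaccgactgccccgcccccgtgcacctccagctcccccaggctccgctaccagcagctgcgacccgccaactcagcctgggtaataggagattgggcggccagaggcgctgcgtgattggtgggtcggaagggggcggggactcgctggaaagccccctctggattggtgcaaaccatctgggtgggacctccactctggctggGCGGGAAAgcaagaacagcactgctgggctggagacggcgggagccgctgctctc
XRCC2: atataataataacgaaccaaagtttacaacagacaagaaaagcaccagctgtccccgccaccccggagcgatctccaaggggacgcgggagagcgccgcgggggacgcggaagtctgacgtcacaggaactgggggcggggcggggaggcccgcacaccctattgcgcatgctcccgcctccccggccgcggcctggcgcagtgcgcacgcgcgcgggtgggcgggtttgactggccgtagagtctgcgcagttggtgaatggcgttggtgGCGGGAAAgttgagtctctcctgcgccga
EXO1: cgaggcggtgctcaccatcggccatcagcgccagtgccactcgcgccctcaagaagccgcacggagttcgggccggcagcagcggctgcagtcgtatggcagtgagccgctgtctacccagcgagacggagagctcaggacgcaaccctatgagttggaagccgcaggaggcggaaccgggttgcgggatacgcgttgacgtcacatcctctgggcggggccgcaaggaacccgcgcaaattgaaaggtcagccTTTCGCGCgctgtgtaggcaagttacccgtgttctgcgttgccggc
FANCD2: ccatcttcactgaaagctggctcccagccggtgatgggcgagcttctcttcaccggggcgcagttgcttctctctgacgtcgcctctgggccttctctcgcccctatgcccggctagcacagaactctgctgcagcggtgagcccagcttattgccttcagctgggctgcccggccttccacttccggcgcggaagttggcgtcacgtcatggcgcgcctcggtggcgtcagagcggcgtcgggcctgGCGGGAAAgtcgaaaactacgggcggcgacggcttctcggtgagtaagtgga
The match is GCGGGAAA, the reverse complement of TTTCCCGC, in CLSPN, XRCC2 and FANCD2, and TTTCGCGC in EXO1. It spans the annotated start in CLSPN and FANCD2 and lies just after it in XRCC2 and EXO1.

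The E2F motif was present in 9 of 39 member genes (23.1%): CLSPN, XRCC2, EXO1, FANCD2, GEN1, RMI1, FANCC, FANCA and TOPBP1. The 39 genes have 54 promoter entries, and a gene was counted when any of its entries held the motif. In EXO1, GEN1, RMI1 and FANCC another entry held no match. Among all genes tested with a promoter entry, 697 of 10456 (6.67%) held it. Of the 19 members with an entry that rose at passage 6, 7 held the motif (36.8%), and of the 20 other members 2 did (10%). The DNA replication genes set beside them held it in 21 of 35 (60%). Mitosis genes held it in 3 of 25 (12%) and other pathway genes outside the 43 in 6 of 52 (11.5%). The cell cycle homology region, TTTGAA or TTCGAA on either strand, was found in 5 of 39 members (12.8%) and 15.8% of genes tested. It was found in 20 of 25 mitosis genes (80%), 15 of 52 other pathway genes (28.8%) and 2 of 35 replication genes (5.71%). CCAAT on either strand was found in 18 of 39 members (46.2%) and 43.5% of genes tested. Replication genes held it in 21 of 35 (60%), mitosis genes in 20 of 25 (80%) and other pathway genes in 33 of 52 (63.5%). The 3 motif sets have no spelling in common, these shares were not tested, and a match describes letters in this window only.

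At passage 4 the +EGF library labelled BRCA2 siRNA was set against the control, a contrast of the siRNA within 1 passage and medium. It has 1 library in each group, so no p is given and a gene was counted when its difference passed 1.5-fold. The library labelled BRCA2 siRNA was past that fold above the control for 16 of the 43 genes and below it for 1, against 5.76% and 6.06% of all genes tested. The difference was above 0 for 34 of the 43 (45.7% of all genes), and its median on the log2 scale was 0.46 among the 43 and -0.04 over all genes. CLSPN had 10.72 in the library labelled BRCA2 siRNA and 9.02 in the control, a difference of 1.70. BRCA1 differed by 1.04, EXO1 by 1.02, FANCB by 0.97 and XRCC2 by 0.94. At the other end, FANCE had 8.43 in the library labelled BRCA2 siRNA and 9.16 in the control, a difference of -0.73. The next lowest were RAD50 at -0.55, RAD52 at -0.49, MUS81 at -0.45 and FAN1 at -0.20. This contrast uses the same passage 4 control as the passage contrast of the controls, so the differences of the 2 contrasts are not independent.

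The +EGF library labelled BRCA2 siRNA was also read against the passage 6 controls, which have another passage. It was below their mean for 38 of the 43 genes (88.4%, against 48.5% of all genes), with a median log2 difference of -0.16 (0.0099 over all genes). None of the 43 was past 1.5-fold (0, against 4.38% of all genes). BRCA2 itself stood at 10.88 in that library and at 11.25 and 11.24 in the passage 6 controls. Its level there thus lay between the controls of the 2 passages, above one and below the other.

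At passage 6, BRCA2 siRNA cells without EGF were set against controls with EGF. None of the 43 genes passed the test: limma called 0, with 8 (18.6%) at an unadjusted p below 0.05 against 31.5% of all genes, while 6.44% of all genes were called, 3.56% higher and 2.88% lower. The differences leaned low, with 36 of 43 below 0 and 7 above it (47.3% of all genes), and a median of -0.17, against -0.02 over all genes. In 27 genes both libraries without EGF were below both controls, which held for 35.7% of all genes tested, and in 3 both were above (29.2%). The replicate block would call 2 genes lower, BLM and UBE2T (1232 genes over the whole table), and the letters were not shown to pair the libraries. Without library A lacking EGF limma called 30 of the 43 (69.8%) and 60.8% of all genes, and without library B 18 (41.9%) and 47.3% of all genes, with the spread from the close control pair alone.

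CLSPN had the lowest difference at -0.79 ± 0.31 (limma, adjusted p = 0.167), with 10.70 and 9.77 without EGF and 10.96 and 11.09 in the controls. BLM had 9.90 and 9.50 without EGF and 10.26 and 10.27 in the controls (difference -0.57 ± 0.15, limma, adjusted p = 0.0878). UBE2T had 9.41 and 9.07 without EGF and 9.78 and 9.82 in the controls (difference -0.56 ± 0.13, limma, adjusted p = 0.0724). In all 3 genes the groups did not overlap, as in 35.7% of all genes tested in that direction. The library labelled B without EGF was the lower of its pair in each. FANCA had 9.32 and 8.63 without EGF and 9.32 and 9.51 in the controls, with a difference of -0.45, and XRCC2 had a difference of -0.44. RAD51AP1, RAD51C and CHEK1 had smaller differences with narrower errors, at -0.36 ± 0.08, -0.35 ± 0.08 and -0.30 ± 0.07 (limma, adjusted p = 0.0665, 0.0681 and 0.072).

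The highest differences at passage 6 were also short of the threshold. RAD52 had 9.0 and 9.31 without EGF and 8.69 and 8.86 in the controls (difference 0.38 ± 0.14, limma, adjusted p = 0.141). Its groups did not overlap, as in 29.2% of all genes tested in that direction. FANCE followed at 0.19, MUS81 at 0.11, RAD51B at 0.09 and FANCC at 0.08. FANCE had 8.31 and 8.76 without EGF and 8.35 and 8.35 in the controls, so its 2 libraries without EGF lay on opposite sides of the controls.

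The 2 libraries without EGF differed from each other more than the controls did. Library B was below library A for 32 of the 43 genes (74.4%, against 50.7% of all genes), with a median log2 difference of -0.19 and a largest gap of 0.92, in CLSPN. Between controls B and A the median was 0.02 and the largest gap 0.19. Set against the control mean, library A had a median of -0.10 with 0 genes past 1.5-fold (7.15% of all genes). Library B had a median of -0.28 with 6 past that fold, 14.0% against 15.3% of all genes, so that count lay near the background. The plot of the 2 libraries against each other shows most points below the diagonal. The summed level of the 10 fibroblast markers, of which 8 passed the filter, was highest without EGF, at 6918 and 7100, against 4354 in the +EGF library labelled BRCA2 siRNA, 2229 and 2590 in the passage 6 controls and 2435 in the passage 4 control. All 8 were higher without EGF than in the passage 6 controls. Against the +EGF library labelled BRCA2 siRNA 6 were higher and 2 lower. The 2 were DCN, at 9.03 and 9.10 without EGF and 10.11 in that library, and LUM, at 7.57 and 8.10 and 8.82. The summed level of the 9 basal markers, of which 8 passed, was 523935 and 465413 without EGF, 267385 in the +EGF library labelled BRCA2 siRNA, 297114 and 292562 in the passage 6 controls and 310833 in the passage 4 control. The summed endothelial markers were 594 and 783 without EGF and 287 and 315 in the passage 6 controls. The part of any of these in the repair gene levels was not tested.

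**Figure D3:**
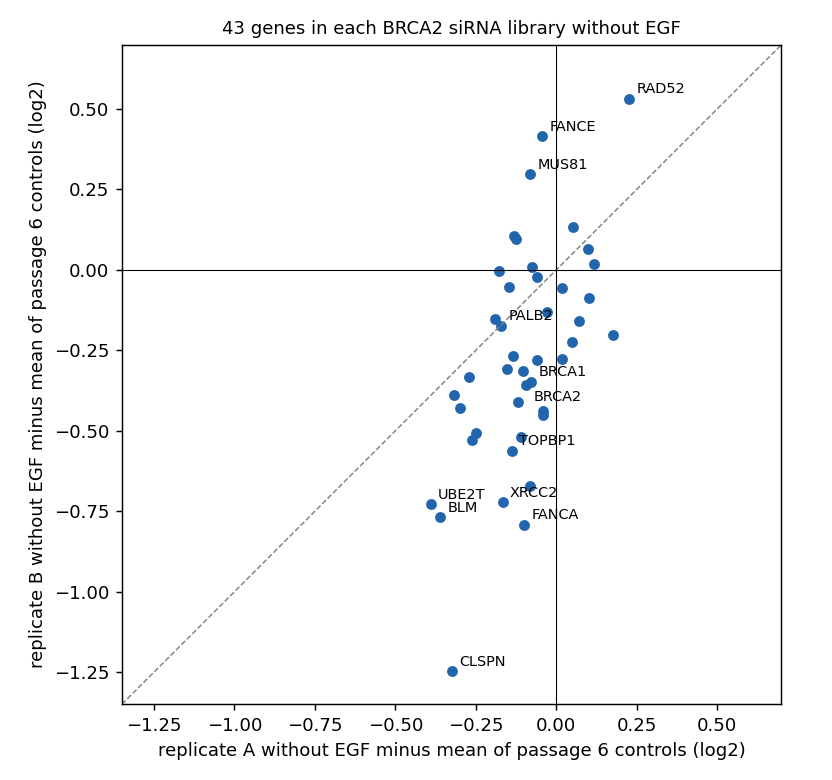
Log2 difference of each of the 43 genes from the mean of the passage 6 controls, in BRCA2 siRNA library A without EGF (horizontal) and library B without EGF (vertical); the dashed line marks equal values and a few genes are named. Library B lay below library A for 32 of 43 genes, with CLSPN farthest.

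Within BRCA2 siRNA cells, the passage 6 libraries without EGF were compared with the passage 4 +EGF library labelled BRCA2 siRNA, so medium and passage differ together. Limma called 0 of the 43 genes, with 4 (9.30%) at an unadjusted p below 0.05, against 37.3% of all genes. Over all genes 16.3% were called, 7.41% higher and 8.89% lower. The median log2 difference was 0.01, with 23 genes above 0 (48% of all genes). RAD52 had 9.0 and 9.31 without EGF and 8.60 with EGF, the highest difference at 0.56 ± 0.17 (limma, adjusted p = 0.0822). EME1 followed at 0.38, then MUS81 at 0.25, FANCD2 at 0.24 and FANCC at 0.23. CLSPN and UBE2T were lowest at -0.49 each, followed by CHEK1 at -0.34 (limma, adjusted p = 0.0618), TOPBP1 at -0.34 and BLM at -0.26. BRCA2 differed by 0.14 ± 0.13 (limma, adjusted p = 0.491). Without library A lacking EGF limma called 26 of the 43 (60.5%) and 62.5% of all genes, and without library B 22 (51.2%) and 60.2% of all genes.

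Lists of S phase and mitotic genes were set beside the 43. Of 39 DNA replication genes tested, such as MCM helicase subunits, 26 rose in the passage 6 controls against the passage 4 control, with a median log2 difference of 1.09. Of 30 mitosis genes, 15 rose, with a median of 0.53, while 7.71% of all genes tested rose. The 43 genes lay between these lists at 0.67. In the passage 6 contrast of BRCA2 siRNA cells without EGF and controls, limma called 0 replication genes, with 18 (46.2%) at an unadjusted p below 0.05 against 31.5% of all genes. All 39 lay below 0, with a median of -0.51. For mitosis genes limma also called 0, with 15 of 30 at an unadjusted p below 0.05, and the median was -0.22. In the passage 4 contrast, 32 of the 39 replication genes and 2 of the 30 mitosis genes were past 1.5-fold above the control in the library labelled BRCA2 siRNA, with medians of 1.0 and 0.29. Of all genes tested 5.76% were past that fold above the control, so the mitosis count lay near the background.

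**Figure D4:**
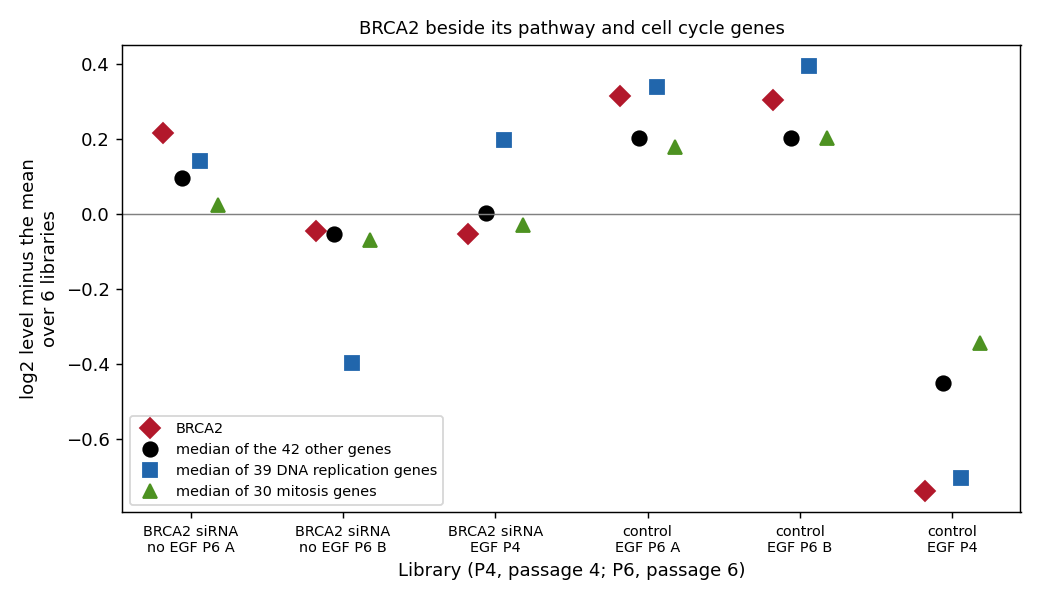
Log2 level minus the mean over 6 libraries for BRCA2, and the median of that value over the other 42 genes, 39 DNA replication genes and 30 mitosis genes, in each library; P4 and P6 are passages 4 and 6. All 4 were lowest in the passage 4 control, and the replication genes were next lowest in library B without EGF, at -0.40.

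By library, BRCA2 minus its own mean stood at 0.22 and -0.05 without EGF, -0.05 in the +EGF library labelled BRCA2 siRNA, 0.32 and 0.30 in the passage 6 controls and -0.74 in the passage 4 control. The median of the other 42 genes was 0.10 and -0.05 without EGF, 0.00 in the +EGF library labelled BRCA2 siRNA, 0.20 and 0.20 in the passage 6 controls and -0.45 in the passage 4 control. BRCA2 was thus ordered over the libraries much as its pathway was, with no library in which it alone was low. On this scale only 5 of the other 42 genes lay below BRCA2 in the passage 4 control. In the +EGF library labelled BRCA2 siRNA 11 did, without EGF 32 and 23, and in the passage 6 controls 37 and 29. In the passage 6 contrast 25 of the other 42 genes had a difference above that of BRCA2 and 17 one below, so the siRNA target lay near the middle of its pathway there. It ranked higher between the control passages, with 5 above and 37 below. At passage 4 it had 10 above and 32 below, and without against with EGF 9 above and 33 below. The replication genes had 0.14 and -0.40 without EGF, 0.20 in the +EGF library labelled BRCA2 siRNA, 0.34 and 0.40 in the passage 6 controls and -0.70 in the passage 4 control. Their part in the repair gene levels was not tested.

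A further 62 pathway genes that are not among the 43 were followed in the same fits. In the passage 6 controls against the passage 4 control, 12 rose and 7 fell, with a median log2 difference of 0.16. Over all genes tested 7.71% rose and 12.4% fell, so the count that fell lay near the background. CDC25A, the phosphatase that the checkpoint degrades, rose by 1.22 ± 0.26 (limma, adjusted p = 0.0407), and FIGNL1, which removes the recombinase from DNA, by 0.99 ± 0.12 (limma, adjusted p = 0.0235). DNA2, a resection nuclease, had a difference of 1.05 (limma, adjusted p = 0.0732). The phosphatase CDC25B fell by 0.71 and MAD2L2, a subunit of the shieldin complex that limits resection, fell by 0.62 (limma, adjusted p = 0.0254 each), and UIMC1, a BRCA1 complex member, had -0.58 (limma, adjusted p = 0.0856).

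In BRCA2 siRNA cells without EGF against controls at passage 6, 2 of the 62 fell and 0 rose, with 47 below 0 and a median of -0.14. The 2 are 3.23% of the list, near the 2.88% of all genes that fell. The genes were ERCC1, a subunit of a crosslink repair nuclease, at -0.50 ± 0.07 (limma, adjusted p = 0.0328), and TIPIN, which acts with claspin at replication forks, at -0.46 ± 0.08 (limma, adjusted p = 0.0427). Both were named after their values were seen. CDC25A had -0.95 (limma, adjusted p = 0.0657), DNA2 -0.54 and RPA3, a subunit of the single strand binding protein, -0.51. The highest were ETAA1, an activator of ATR, at 0.26, FAAP100, a Fanconi core subunit, at 0.18 and WEE1, the kinase that restrains mitotic entry, at 0.17.

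Against the passage 4 +EGF library labelled BRCA2 siRNA, the cells without EGF had 1 of the 62 higher and 2 lower by limma. Over all genes tested 7.41% were higher and 8.89% lower, so the list was called less often than all genes. WEE1 rose by 0.40 (limma, adjusted p = 0.0432), ERCC1 fell by 0.64 (limma, adjusted p = 0.0241) and SEM1, a small protein that binds BRCA2, fell by 0.62 (limma, adjusted p = 0.0383). RECQL5, a helicase, had 0.42, RAD9A, a clamp subunit of the checkpoint, 0.37 and CDC25A -0.67, none past the threshold. ERCC1 and WEE1 were read in the same libraries without EGF in both contrasts, which are therefore not independent.

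Gene length and base composition were available for all 43 genes and 96.8% of genes tested. Genes were split into 4 equal groups by transcript length. From the shortest to the longest group, the median log2 difference between the control passages was 0.73, 0.48, 0.59 and 0.75 for the 43 genes (3, 15, 11 and 14 genes). Over all genes it was -0.05, -0.02, -0.03 and -0.04 in those groups. In 4 equal groups by GC content, lowest first, it was 0.85, 0.51, 0.58 and 0.46 for the 43 genes and 0.02, -0.03, -0.02 and -0.10 over all genes. In this contrast the median of the 43 genes was above that of all genes in each group of either split.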

How the data were processed

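Messenger RNA was purified on beads and sequenced from ScriptSeq libraries of hTert-HME1 cells, per the labels' protocols. The submitters' processing notes name TopHat2 2.0.11, DESeq2 (no version) and the build hg19. Not given in the sources used here are the read counter, the annotation and the transformation. Normalised log2 values were deposited as 1 table, from -1.98 to 19.93, with 57820 gene rows. It has 1 column per library, matched to the 6 samples by the names in the labels, with 0 left over. Of those rows, 25986 were 0 in every library. If the transformation shrinks low values, small genes' differences are understated. Depth per library is unknown, so no counting interval is given.

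The 43 genes and the lists set beside them were chosen with earlier results of these data known. Symbols were matched on Ensembl identifiers (89.9% of rows). The 14763 genes whose linear values (2 to the power of the deposited value) averaged at least 10 entered 1 limma fit (limma 3.58.1, R 4.3.3, lmFit and eBayes with trend and robust prior, two-sided) on the log2 values. It had 4 groups, by siRNA, medium and passage, which leaves 2 residual degrees of freedom. P-values were Benjamini-Hochberg adjusted over all genes tested, with 0.05 as the threshold. Groups of 1 library borrow the spread of the pairs. The procedure was tested on simulated data, with libraries drawn independently and 1 spread for each gene in every library. Those data hold no closer pair and no odd lone library, so they do not bear on how calls depend on single libraries. Described are BRCA2 and its partners PALB2, BRCA1 and BARD1 in every library, the 5 highest and 5 lowest of the 43 in each comparison, and the 3 highest and 3 lowest other pathway genes with a mean of at least 50 in each tested comparison. The remaining members are given by role. Promoters come from RefSeq (GRCh38.p14), and lengths and GC content from GENCODE transcripts of another build than the authors used.

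The letters A and B are shared by the passage 6 groups, but nothing in the labels says that they mark a shared culture or day, so the fit has no block.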

Additional observations from a re-analysis of the deposited data

How the results depend on the processing

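Calls among the 43 genes depended on the fit more than the differences did. For the passage of the controls, where 23 were called, averaging the passage 6 controls gave 0, no filter on low values gave 0, and leaving out 1 library gave 0 (either passage 6 control) to 36 (either library without EGF). Other settings gave 19 to 27. For BRCA2 siRNA without EGF against controls at passage 6, where 0 were called, leaving out 1 library gave 0 to 30, the highest without library A lacking EGF (18 without library B). The letters were not shown to pair the libraries: the A minus B differences of the 2 groups correlated at -0.17 over 14763 genes. The replicate block gave 2 calls and a crossed pairing, chosen after seeing the data, gave 3. For BRCA2 siRNA without EGF against with EGF, where 0 were called, leaving out 1 library gave 0 to 26, the highest again without library A (22 without library B). Without a library lacking EGF the spread comes from the close controls alone. At passage 4, where 17 genes passed 1.5-fold, pooling the controls of both passages gave 0.

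Pooling the controls put the passage 4 control into the control mean, which turned differences round. Without EGF against controls, BRCA2 became 0.12, BRCA1 0.21, BARD1 0.15 and FANCE -0.084. With EGF against controls, BRCA2 became -0.014 and BARD1 -0.063. With 1 library left out at passage 6, MUS81 ran from -0.081 (without library B lacking EGF) to 0.30 and FANCE from -0.043 (likewise) to 0.42. PALB2 between control passages became 0.015 with libraries shifted to the same median and 0.045 under quantile normalisation. BRCA1 without against with EGF ran from -0.13 (without library A lacking EGF) to 0.14. Over all genes, 950 calls at passage 6 became 146 with controls pooled, 46 with controls averaged and 76 without a filter, the 2963 between control passages became 0 with controls averaged or without a filter, and the 2406 without against with EGF became 30, 203 and 0. With the controls averaged, the spread comes from the pair without EGF alone. The cause of the other changes in calls was not tested. A fit of the passage 6 libraries alone gives no value for comparisons with passage 4. The passage 4 groups have 1 library each and could not be left out of their own comparisons, and depth is unknown.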
